A study of Mus musculus with 11 samples.

Results

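Cytosolic ribosomal protein genes were taken as every entry of the count table whose symbol begins with Rpl or Rps and goes on with a number (with or without a closing a, l or x), with p and a digit from 0 to 2, or with a. The rule found 83 genes among 57186 gene entries: 32 of the small subunit, 48 of the large subunit and 3 of the stalk. Of these, 80 are annotated as protein-coding in GENCODE M21 and 3 (Rps4l, Rpl6l and Rpl32l) as pseudogenes. The genes were followed in 11 bulk RNA-seq libraries of cells sorted from untreated, 14-day-old mice of the genotype Cd3giCreRosa26stopZsGreen. In these mice the Cre recombinase iCre is driven by Cd3g and turns on the green protein ZsGreen from the Rosa26 locus, so ZsGreen marks cells that used Cd3g or whose ancestors did. The groups were lung group 2 innate lymphoid cells (ILC2) without ZsGreen (n = 5), lung ILC2 with ZsGreen (n = 3) and thymic DN3 cells, CD4- CD8- T cell precursors that rearrange the T cell receptor beta locus (n = 3). All groups carried the same alleles, and no group came from mice without Cre. Whether the libraries stem from separate or pooled animals is not in the labels, and the p-values below therefore speak only of library-to-library spread, part or all of which may be technical.

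The cytosolic ribosome translates nuclear messages. Its small subunit reads the message and its large subunit joins amino acids, and each protein is present once per ribosome except the acidic stalk proteins, so cells make the parts in matched amounts. Many of their messages begin with a 5′ terminal oligopyrimidine (TOP) tract, a cytosine followed by an unbroken run of pyrimidines, through which mTOR and LARP1 control their translation. A few members have a second gene of similar sequence, and some of these look-alikes are known from testis or muscle. Developing thymocytes and activated lymphocytes raise ribosome production when they grow and divide.

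The starts of a few members are shown because the pyrimidine tract is known from many messages of the family. Rps27 and its look-alike Rps27l differ in it, and the part of the tract in their changes was not tested. Each line gives 30 bases, 5′ to 3′, from 10 bases before to 20 bases from the RefSeq start onward, on build GRCm38.p6. Capitals mark the pyrimidine run that begins with C at the start.
Rps6 (chr4:86857348-86857377, reverse strand): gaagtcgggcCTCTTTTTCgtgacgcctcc
Rpl15 (chr14:18270967-18270996, reverse strand): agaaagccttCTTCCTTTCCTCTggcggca
Rps27 (chr3:90213629-90213658, reverse strand): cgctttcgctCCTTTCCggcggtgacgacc
Rps27l (chr9:66946076-66946105, forward strand): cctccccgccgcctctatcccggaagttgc
Rps27l (chr9:66946403-66946432, forward strand): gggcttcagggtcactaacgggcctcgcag
Rpl37a (chr1:72711250-72711279, forward strand): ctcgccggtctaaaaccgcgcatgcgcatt
Rps2 (chr17:24720053-24720082, forward strand): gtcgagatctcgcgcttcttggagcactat
Rps10 (chr17:27635225-27635254, reverse strand): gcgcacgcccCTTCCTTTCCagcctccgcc
Rps27 opens with a tract of 7 pyrimidines, whereas neither RefSeq start of Rps27l begins with C. Rpl37a and Rps2, the furthest below and the furthest above the family among members over 100 CPM in DN3 cells, have no tract at the annotated start. Among the 61 members with a RefSeq window, 14 (23.0%) began with C and at least 4 further pyrimidines, against 3.01% of 27025 genes. The letters CCGGAAG, on either strand of the window from 250 bases before to 50 after the start, occurred in 41.0% of these members and in 9.93% of all genes. The letters TATAAA, searched in the same way, occurred in 11.5% and 15.7%. A start annotated a few bases away from the one used in a cell hides a tract, so a missing match says only that the letters are not at the annotated position.

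Library totals lay between 4495260 and 17627469 counts. The ILC2 marker Il1rl1 was at 2564 CPM or more in every lung library and at 0 in all DN3 libraries, and the DN3 marker Rag1 was at 1219.8 to 1314 CPM (counts scaled to a total of 1e+06 after TMM scaling, which multiplies each library's total by a factor that centres the genes shared between libraries) in DN3 libraries and at most 0.518 CPM in lung libraries. Summed markers of lung structural cells (27 genes) lay between 537 and 1579.9 CPM in ILC2 without ZsGreen and between 1386 and 3357 CPM in those with it. The labels give dates as batches. One date covers the first 4 ZsGreen-negative and the first 2 ZsGreen-positive libraries, another ZsGreen-negative library 5 with ZsGreen-positive library 3, and the DN3 libraries a further one. Tissue and date thus cannot be told apart wherever DN3 cells are compared.

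The ranges of the family's share of the counts overlapped between all 3 groups. It held 5.73, 6.70, 5.91, 7.20 and 5.45% of all counts in the ZsGreen-negative libraries, 6.30, 5.61 and 6.09% in the ZsGreen-positive libraries and 6.05, 6.24 and 5.99% in the DN3 libraries. Group means were 6.20% ± 0.727 (SD, n = 5), 6.00% ± 0.353 (SD, n = 3) and 6.09% ± 0.128 (SD, n = 3). ZsGreen-negative libraries 4 and 5 held the highest and the lowest share. In bulk samples, fewer cells of a type and less RNA per cell cannot be told apart. Small subunit genes made up 41.1 to 42.2% of the family's counts over the 11 libraries. Entries named as ribosomal protein pseudogenes (321) held counts equal to 1.07 to 2.09% of the family's.

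**Figure D1:**
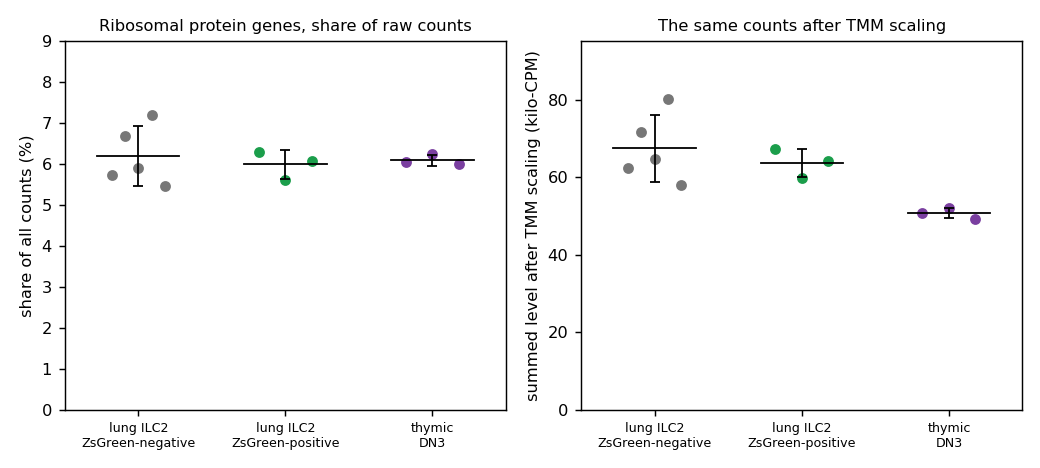
Share of all counts taken by the 83 ribosomal protein genes (left, percent) and their summed level after TMM scaling (right, kilo-CPM) in each library, by group. Points are libraries, and bars give the mean and SD (n = 5, 3 and 3). The shares overlap between 5.45 and 7.20%, whereas after scaling the 3 DN3 libraries lie below all 8 lung libraries.

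Members stood high or low together in several libraries. Of the 80 members that passed the filter on low counts (Rpl3l, Rpl10l and Rpl39l did not), 79 lay above their group mean in ZsGreen-negative library 4 and 73 in library 2, against 4 in library 1 and 7 in library 5. The median member stood 0.28 above its group mean on the log2 scale in library 4 and -0.21 in library 5. In ZsGreen-positive library 3 and DN3 library 1 the members split, with 38 and 41 of the 80 above. The same count over all genes was not made. Summed initiation factor genes were also highest in ZsGreen-negative library 4 and lowest in library 5 within that group (8749 and 7744 CPM). Summed ribosome biogenesis and mitochondrial ribosomal protein genes were highest in library 4 too (4573 and 2023 CPM). They were lowest in library 3 (4327 and 1650 CPM). Between the ZsGreen-negative libraries, the median SD of a member's log2 level was 0.203. Taken as a share of the family, it was 0.0745, and the SD was smaller for 74 of the 80 members. The same 2 values were 0.130 and 0.0957 in ZsGreen-positive ILC2, and 0.0685 and 0.0474 in DN3 cells. The SD as a share was smaller for 63 of 80 members in ZsGreen-positive ILC2 and 58 of 80 in DN3 cells. A share of the family takes out any shift common to its members, so a smaller SD follows in part from the measure. Other gene sets were not measured in this way, so the values do not show whether this is particular to the family.

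Levels were uneven within the family. Per kilobase of the shortest principal transcript, the stalk protein gene Rplp1 had the highest level in lung ILC2, 3041 CPM per kilobase in ZsGreen-negative and 2715 in ZsGreen-positive cells. In DN3 cells Rplp0, the scaffold of the stalk, was highest at 1757 CPM per kilobase, followed by Rplp1 at 1578. Over all 83 members the median was 1008 CPM per kilobase in lung ILC2 and 782 in DN3 cells. Without division by length, 73 members were above 100 CPM in lung ILC2 and 10 were below 100 CPM in both tissues: the look-alikes Rps27l, Rps4l, Rpl3l, Rpl6l, Rpl10l, Rpl32l and Rpl39l, and the core genes Rps10, Rpl13a and Rpl24. Counts of the last 3 are uncertain. GENCODE M21 places a second gene on the same strand across each of them, and those entries held 0 counts, so how reads shared between overlapping genes were counted bears on their level. Whether counting used the strand is not given in the sources used here, and 21 members overlap a gene on the opposite strand.

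The comparison of ZsGreen-positive with ZsGreen-negative lung ILC2 asks whether ILC2 with a history of Cd3g expression differ from other lung ILC2. Of the family, only Rps4l passed the test. By edgeR's quasi-likelihood test with batch as a term and Benjamini-Hochberg (BH) adjustment over 13771 genes, 1 of 80 members was higher (background 2.35% of genes tested) and 0 were lower (background 2.18%). At an unadjusted p under 0.05, 1 member was higher and 1 lower, and DESeq2 and limma voom also called 1 higher and 0 lower. The median member log2 fold change was -0.06, against -0.000578 over all genes and -0.02 over the 2220 other genes above 100 CPM. Its sign was not stable: it lay between -0.13 and 0.01 when single libraries were left out. The member nearest to a call in the other direction was Rpl36a (294, 345, 319.7, 407 and 307 CPM without and 314, 265 and 271 CPM with ZsGreen), whose ranges overlapped (log2 fold change -0.22 ± 0.10 (SE), adjusted p = 0.291).

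Rps4l, a transcribed processed pseudogene by the annotation and a look-alike of the small subunit gene Rps4x, was the exception. It had 35, 49, 25, 48 and 62 counts in the ZsGreen-negative libraries, 127, 80 and 222 in the ZsGreen-positive libraries and 50, 50 and 29 in DN3 libraries. These are 6.04, 8.77, 6.09, 7.95 and 4.57 CPM, 18.4, 14.8 and 13.2 CPM and 7.05, 5.38 and 3.39 CPM. Every ZsGreen-positive library was above every other library, and the DN3 libraries lay within or below the ZsGreen-negative range. Rps4l rose 2.46-fold in ZsGreen-positive ILC2 (log2 fold change 1.30 ± 0.19 (SE), edgeR BH-adjusted p = 0.000458), and in DN3 cells it was below ZsGreen-positive ILC2 (-1.55 ± 0.26 (SE), adjusted p = 1.34e-05). Against ZsGreen-negative ILC2 the DN3 difference did not pass the test (-0.33 ± 0.25 (SE), adjusted p = 0.245). Measured against the family in place of all genes, 1 member was higher (background 1.14%) and 0 were lower (background 0.465%), with 0 lower also at an unadjusted p under 0.05 and by DESeq2 and limma voom. The 1 was again Rps4l (1.36 ± 0.19 (SE), adjusted p = 0.00113). Within the libraries of the earlier lung batch alone, 4 against 2, Rps4l was also called (1.20, adjusted p = 0.00594). The later lung batch holds 1 library of each group and gives no test. With the score of lung structural markers as a further term its estimate was 1.49 and the call was lost (adjusted p = 0.0552), which left 0 members called, with 13 genes higher and 43 lower among all 13771. That score, the mean log2(CPM + 1) over the markers, averaged 3.61 ± 0.488 (SD, n = 5) without ZsGreen and 4.61 ± 0.417 (SD, n = 3) with it. Among the ZsGreen-positive libraries, the one with the highest score (library 3, 5.07) had the lowest Rps4l level. That library is of the later batch, and ZsGreen-negative library 5 of the same batch was also lowest in its group (4.57 CPM). Batch and score thus cannot be told apart in this order. Of the 25 structural markers tested, 5 were higher in ZsGreen-positive ILC2 and 0 lower by edgeR (median 1.19). Over all genes tested, edgeR called 2.35% higher and 2.18% lower. DESeq2 called 9 of the markers higher and limma voom 20, and the shares of all genes by these methods are not given here. By edgeR the count was 12 without ZsGreen-negative library 3, and 1 without ZsGreen-negative library 5 or ZsGreen-positive library 3. The part of such cells in the level of Rps4l was not tested beyond that term. Rps4l lies opposite Tmtc1, which held 93 counts in all libraries together.

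Rps4x itself, the X-linked gene of the same small subunit protein, gave no call. It had 1654, 1879, 1669.6, 2072 and 1492 CPM without ZsGreen and 1726, 1534 and 1603 CPM with it, with overlapping ranges (log2 fold change -0.08 ± 0.10 (SE), adjusted p = 0.787). The 2 transcripts share 80.1% of aligned bases. Per kilobase, Rps4x stood 222, 173, 222, 211 and 264 times above Rps4l in the ZsGreen-negative libraries, 75.9, 83.9 and 97.9 times in the ZsGreen-positive libraries and 147, 194 and 298 times in the DN3 libraries. The ratio was lower in every ZsGreen-positive library than in any other, and it does not depend on how libraries were scaled.

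Between DN3 cells and lung ILC2 the family stood lower after TMM scaling, by an amount that depends on the scaling. The family's summed level was 50767, 51939.9 and 49292 CPM in DN3 libraries and 58049.9 to 80244 CPM in the 8 lung libraries, with a median of 64377. In a fit of all 11 libraries that tested 15132 genes, 58 of 80 members were lower in DN3 cells than in all lung ILC2 (background 42.1%) and 4 were higher (background 36.7%). The median member log2 fold change was -0.41, against -0.09 over all genes. With library totals alone, with no scaling factor, the median was -0.04 for the members and 0.28 for all genes, and 16 members were called lower (background 32.3%) and 16 higher (background 48.1%), both below the share of all genes. The family's distance from the median gene was -0.32 with TMM and -0.31 with totals alone. TMM factors lay between 0.900 and 0.954 in lung and between 1.20 and 1.22 in DN3 libraries. The 2224 other genes above 100 CPM had a median of -0.43, next to that of the ribosomal protein genes.

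The comparisons with each lung group share the DN3 libraries and are given side by side. Against ZsGreen-negative ILC2, 58 members were lower (background 41.2%) and 3 higher (background 35.5%), with a member median of -0.44. Against ZsGreen-positive ILC2, 52 were lower (background 40.3%) and 3 higher (background 34.8%), with a member median of -0.36. With library totals alone, 16 were lower than in ZsGreen-negative ILC2 (background 31.3%) and 12 higher (background 47.5%). Against ZsGreen-positive ILC2, 14 were then lower (background 31.7%) and 16 higher (background 45.4%). Without ZsGreen-positive library 3, 5 members were higher than in ZsGreen-positive ILC2, of which Rpl3l, with 0 counts in every ZsGreen-positive library, is under the filter when all libraries are used and passed it here through its DN3 counts. Members of both subunits were called. Against all lung ILC2 on the TMM scale, 23 of 32 small subunit genes were lower and 3 higher (median -0.40). Of 48 tested large subunit genes, stalk included, 35 were lower and 1 higher (median -0.42). Over all genes tested, 42.1% were lower and 36.7% higher in that comparison. The DN3 range lay wholly below the range of the 8 lung libraries for 46 of the 80 tested members (background 36.7% of all genes tested) and wholly above it for 2 (background 32.7%), on the TMM scale.

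**Figure D2:**
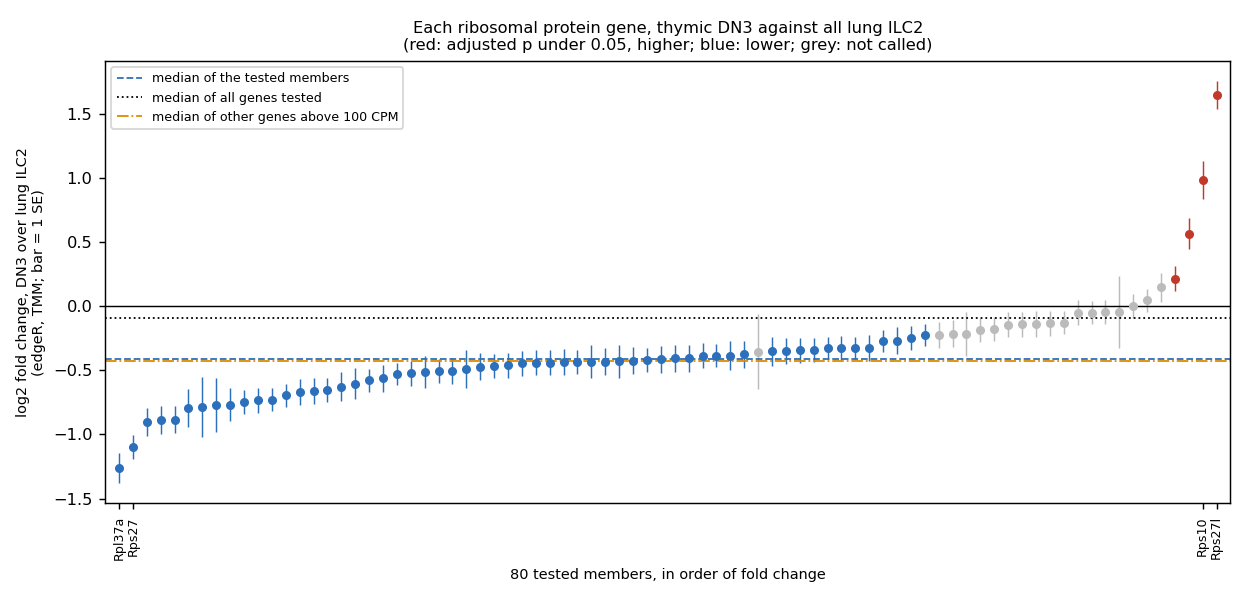
Log2 fold change of each of the 80 tested ribosomal protein genes in DN3 cells over all lung ILC2 (edgeR, TMM scaling), in order of size, with the lowest 2 and highest 2 named on the axis. Points are fitted values and bars 1 SE, red marks members called higher, blue lower and grey not called, and lines give the medians of the members, of all genes tested and of other genes above 100 CPM. Most members sit in a narrow band around -0.41, with Rpl37a and Rps27 at the low end and Rps10 and Rps27l at the high end.

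Since the level of the whole family depends on scaling, each member was also measured against the family, with library offsets taken from the members alone. On that scale 16 of 80 members were higher in DN3 cells (background 46.4%) and 15 lower (background 30.7%), both below the share of all genes, and 49 did not pass this test. The lower and upper quartiles of the members were -0.14 and 0.17 in log2 fold change. Without DN3 library 1, 10 members were higher.

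Rpl37a, a zinc-binding protein of the large subunit, lay furthest below the family. Its levels were 686, 830.0, 728, 1011 and 665 CPM in ILC2 without ZsGreen, 795, 655 and 822 CPM in ILC2 with ZsGreen and 306, 339.8 and 322 CPM in DN3 libraries. All DN3 values were below all lung values, and Rpl37a fell 2.40-fold (log2 fold change -1.26 ± 0.12 (SE), edgeR BH-adjusted p = 3.38e-09) and by 0.86 log2 units relative to the family (± 0.11 SE, adjusted p = 1.19e-07). Rpl34, another large subunit gene, was at 407 ± 53.9 (SD, n = 8) CPM in lung ILC2 and 207, 231 and 212 CPM in the DN3 libraries, with no overlap (relative to the family -0.51 ± 0.11 (SE), adjusted p = 0.000156). The large subunit genes Rpl23 and Rpl21 also fell below the family, by smaller amounts (-0.35 ± 0.10 (SE), adjusted p = 0.00301, and -0.34 ± 0.10 (SE), adjusted p = 0.00372).

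The stalk genes had unlike values. Rplp1, an acidic protein of the kind that recruits translation factors, had 1318, 1672, 1282, 1747 and 1569 CPM in ILC2 without ZsGreen, 1427, 1160.3 and 1476 CPM in ILC2 with ZsGreen and 723, 818 and 821 CPM in DN3 libraries. The DN3 libraries were all lower, and Rplp1 fell relative to the family (-0.49 ± 0.12 (SE), adjusted p = 0.000467). Rplp0, to which the acidic proteins bind, had 2522, 2857, 2517, 3151 and 2220.5 CPM, 2691, 2419 and 2679 CPM and 2458, 2394 and 2306 CPM in the same order, with overlapping ranges. It did not pass the test on the TMM scale (-0.14 ± 0.10 (SE), adjusted p = 0.187) and rose relative to the family (0.25 ± 0.09 (SE), adjusted p = 0.0155). The latter call was lost without DN3 library 1 (adjusted p = 0.0880) or library 3 (0.0560). Rplp2, the other acidic protein gene, was lower on the TMM scale (-0.63 ± 0.11 (SE), adjusted p = 4.02e-05) and did not pass the test against the family (-0.23 ± 0.11 (SE), adjusted p = 0.0593), and is named after its values were seen.

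Rps2, whose protein lines the message entry channel of the small subunit, stood above the family. It had 1317, 1457, 1294, 1642 and 1131 CPM in ILC2 without ZsGreen, 1363, 1220.2 and 1345 CPM in ILC2 with ZsGreen and 1582, 1610.0 and 1493 CPM in DN3 libraries. ZsGreen-negative library 4 exceeded the DN3 libraries, so the ranges overlapped. Rps2 rose relative to the family (0.61 ± 0.09 (SE), adjusted p = 2.32e-06). Its rise on the TMM scale was small (0.21 ± 0.09 (SE), adjusted p = 0.0442), and that call was lost without ZsGreen-negative library 1, 3 or 5, ZsGreen-positive library 1 or 2, or any DN3 library (adjusted p = 0.0566 to 0.141).

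Rpl3, which shapes the peptidyl transferase centre, also rose relative to the family. Its levels were 1527, 1548, 1548, 1668 and 1042 CPM in ILC2 without ZsGreen, 1539, 1404 and 1159.5 CPM in ILC2 with ZsGreen and 1547, 1669.8 and 1523 CPM in DN3 libraries. The ranges overlapped, and ZsGreen-negative library 5 and ZsGreen-positive library 3, which share a batch, were the lowest of all. Rpl3 did not pass the test on the TMM scale (0.15 ± 0.11 (SE), adjusted p = 0.251) and did relative to the family (0.54 ± 0.11 (SE), adjusted p = 0.000106). Rpl7a, a large subunit gene, behaved likewise (0.05 ± 0.09 (SE), adjusted p = 0.643, on the TMM scale, and 0.44 ± 0.10 (SE), adjusted p = 0.000292, relative to the family). With library totals alone edgeR called both Rpl3 (0.52, adjusted p = 0.000122) and Rpl7a (0.42, adjusted p = 7.12e-05) higher.

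**Figure D3:**
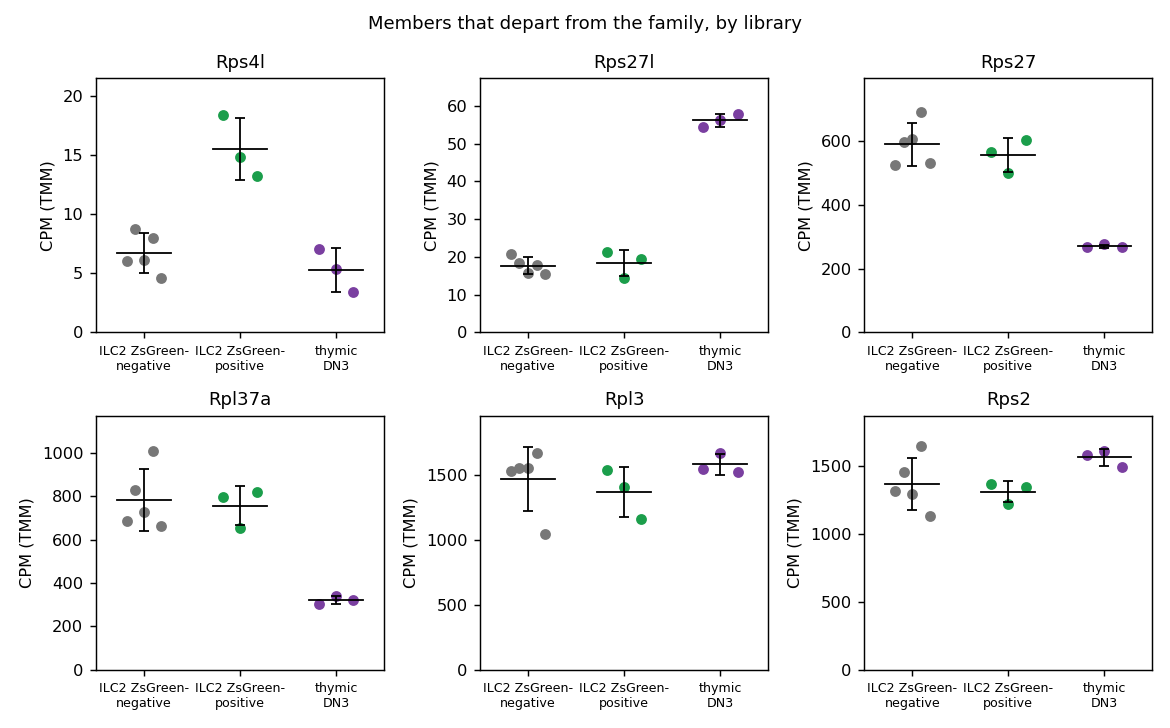
Level (CPM after TMM scaling) of 6 members in each library, by group. Points are libraries, and bars give the mean and SD (n = 5, 3 and 3). Rps4l is highest in the ZsGreen-positive libraries, Rps27l in the DN3 libraries, and Rps27 and Rpl37a are lower in all DN3 libraries, whereas Rpl3 and Rps2 overlap between the tissues.

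Rps27 and its look-alike Rps27l, which encode alternative forms of the same small subunit protein, moved in opposite directions. Rps27l is a known target of p53. Rps27 had 526, 598, 606, 691 and 532 CPM in ILC2 without ZsGreen, 568, 500.2 and 604 CPM in ILC2 with ZsGreen and 269, 276 and 267 CPM in DN3 libraries. Rps27l had 20.9, 18.3, 15.6, 17.9 and 15.5 CPM, 21.2, 14.4 and 19.5 CPM and 54.4, 56.1 and 57.9 CPM in the same order. Each gene's DN3 libraries lay wholly outside the lung range, on opposite sides. In DN3 cells Rps27 fell 2.14-fold (log2 fold change -1.09 ± 0.09 (SE), edgeR BH-adjusted p = 4.23e-10) and Rps27l rose 3.13-fold (1.65 ± 0.11 (SE), adjusted p = 4.32e-12). Relative to the family the values were -0.70 ± 0.11 (SE) (adjusted p = 2.25e-06) and 2.03 ± 0.13 (SE) (adjusted p = 3.14e-13), and both calls held under every alternative run. Per kilobase, Rps27 stood 36.5 to 56.2 times above Rps27l in the lung libraries and 7.15, 7.12 and 6.67 times in the DN3 libraries, a ratio free of scaling. The transcripts share 77.4% of aligned bases. Neither gene passed the test between the lung groups (adjusted p = 0.806 and 0.853).

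Beside Rps27l, a list of p53 targets was read. It also holds the p53 gene Trp53 itself, which was higher in DN3 cells with library totals alone (log2 fold change 1.23, edgeR adjusted p = 7.91e-14). Of 13 tested genes of a p53 list, 4 were higher and 7 lower in DN3 cells (median -0.22 on the TMM scale and 0.15 with library totals alone, where 6 were higher and 6 lower). On the TMM scale these shares lie near those of all genes tested, 36.7% higher and 42.1% lower. With library totals alone 48.1% of all genes tested were higher and 32.3% lower. Cdkn1a, the cell cycle inhibitor p21, was at 479 ± 35.0 CPM (SD, n = 8) in lung ILC2 and 40.1 ± 1.86 CPM (SD, n = 3) in DN3 cells (log2 fold change -3.58 ± 0.10, adjusted p = 9.21e-19). Zmat3, an RNA-binding p53 target, was at 41.5 ± 3.71 CPM (SD, n = 8) in lung ILC2 and 6.89 ± 0.477 CPM (SD, n = 3) in DN3 cells (log2 fold change -2.58 ± 0.13, adjusted p = 2.03e-14). Both fell under either scaling, whereas Gtse1, a mitotic regulator of p53, rose (2.22 ± 0.15, adjusted p = 6e-12). Between the lung groups 0 of the 13 were higher (background 2.35%) and 1 lower (background 2.18%). The 1 was Sesn1, a stress-induced inhibitor of mTOR (-0.64 ± 0.10, adjusted p = 0.000808).

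The remaining look-alikes were rare. Rpl3l, the muscle form of Rpl3 (75.3% of aligned bases shared), held 3, 0, 1, 0 and 1 counts in the ZsGreen-negative, 0, 0 and 0 in the ZsGreen-positive and 11, 11 and 19 in the DN3 libraries. It was under the filter on low counts, and every DN3 library was above every lung library. The pooled ratio of DN3 to lung was 21.1 (95% exact interval 8.34 to 68.4, counting error only). Rpl39l, known from testis, held 62 counts over the 8 lung libraries and 7 over the DN3 libraries (ratio 0.290, interval 0.112 to 0.634). Its level was 0.863, 0.716, 0.975, 0.662 and 0.443 CPM without ZsGreen and 1.59, 1.48 and 1.19 CPM with it. The latter were all higher, at levels too low for the test. The share of all genes that separate the 2 lung groups in this way was not counted. Rpl10l, also known from testis, held 2 counts in all libraries together. The ordinary copies Rpl10 (-0.01 ± 0.10 (SE), adjusted p = 0.938) and Rpl39 (-0.37 ± 0.13 (SE), adjusted p = 0.0169) were measured against the family as well. Rpl39, a small protein at the exit tunnel, was lower, a call lost without DN3 library 1 (-0.32, adjusted p = 0.0902). Rpl6l and Rpl32l share 98.7% and 96.0% of aligned bases with Rpl6 and Rpl32, so their reads cannot be assigned with certainty, and neither passed a test.

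Rps10 and Rpl13a were called higher in DN3 cells at uncertain levels. Rps10, a small subunit protein near the beak, had 7.76, 6.98, 9.50, 9.77 and 9.96 CPM in ILC2 without ZsGreen, 7.10, 7.02 and 9.55 CPM in ILC2 with ZsGreen and 16.5, 17.8 and 16.4 CPM in DN3 libraries, with no overlap between the tissues (0.98 ± 0.15 (SE), adjusted p = 3.32e-06). Rpl13a, a large subunit protein with a known role outside the ribosome in silencing inflammatory messages, had 28.5, 27.9, 28.8, 43.0 and 25.0 CPM, 26.7, 27.2 and 28.3 CPM and 44.0, 44.7 and 41.3 CPM. ZsGreen-negative library 4 lay within the DN3 range, and the other lung libraries lay below it (0.56 ± 0.12 (SE), adjusted p = 0.000240). Rpl24 held between 14 and 45 counts per library and did not pass the test (-0.04 ± 0.28 (SE), adjusted p = 0.890). The same-strand overlap described above applies to all 3 genes.

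Members with known roles beyond the ribosome are given next. Rps6, the substrate of the S6 kinases, had 1139, 1262, 1151, 1417 and 1089.9 CPM in ILC2 without ZsGreen, 1197, 1086 and 1074 CPM in ILC2 with ZsGreen and 947, 946 and 923 CPM in DN3 libraries. It was lower in DN3 cells on the TMM scale (-0.33 ± 0.09 (SE), adjusted p = 0.00200) and not relative to the family (0.07 ± 0.10 (SE), adjusted p = 0.530). Rps19, mutated in Diamond-Blackfan anaemia, showed the same pattern (-0.33 ± 0.10 (SE), adjusted p = 0.00668, and 0.07 ± 0.10 (SE), adjusted p = 0.515). So did Rpl22, whose loss in mice blocks alpha-beta T cell development (-0.33 ± 0.10 (SE), adjusted p = 0.00406, and 0.07 ± 0.10 (SE), adjusted p = 0.534). With library totals alone the estimate of each of these 3 genes turned to 0.05.

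Rpl5 and Rpl11, which together with ribosomal RNA bind the p53 inhibitor Mdm2, are given side by side. Rpl5 was at 1284 ± 112 (SD, n = 8) CPM in lung ILC2 and 889.6 ± 43.6 (SD, n = 3) CPM in DN3 cells (-0.53 ± 0.09 (SE), adjusted p = 1.38e-05) and did not pass the test against the family (-0.14 ± 0.10 (SE), adjusted p = 0.232). With library totals alone the call of Rpl5 was lost (-0.16, adjusted p = 0.0946). Rpl11 was at 713 ± 79.1 (SD, n = 8) and 652 ± 36.3 (SD, n = 3) CPM, did not pass the test on the TMM scale (adjusted p = 0.207) and rose relative to the family (0.27 ± 0.10 (SE), adjusted p = 0.0161). The latter call was lost without DN3 library 1 (adjusted p = 0.0723) or library 2 (0.0721). Whether Rpl5 and Rpl11 differ in their change was not tested. Rpsa, the laminin receptor precursor, and Rpl4 were, with Rplp0, the members with the highest mean CPM. Rpsa was at 2507 ± 305 (SD, n = 8) CPM in lung and 2148 ± 78.4 (SD, n = 3) CPM in DN3 cells (-0.22 ± 0.10 (SE), adjusted p = 0.0516), just short of a call. It was called lower without ZsGreen-negative library 1, 3 or 5 or ZsGreen-positive library 2 (adjusted p = 0.0201 to 0.0473). Rpl4 was lower in DN3 cells on the TMM scale (-0.34 ± 0.09 (SE), adjusted p = 0.00236) and not relative to the family (0.05 ± 0.10 (SE), adjusted p = 0.656), and its estimate was 0.03 with library totals alone.

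Members were then grouped by the sequence features of their starts and by length. In DN3 cells against lung ILC2, the 14 members with a pyrimidine tract had a median log2 fold change of -0.37, with 9 called lower and 1 higher (all genes tested: 42.1% lower and 36.7% higher). The 44 tested members without one had -0.40, with 32 lower and 3 higher. Members with CCGGAAG (24 tested) had -0.36 and those without (34 tested) -0.41. Of the members called below the family in DN3 cells, the median transcript length was 558 bases, against 787 for those above the family and 751 for the rest. The ranges of length overlapped widely, from 345 to 1613 bases for those below and from 494 to 1358 for those above. The part of length, or of a batch difference in library fragments, in these departures was not tested.

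Other genes of the translation machinery had other values, from lists chosen by role. Of 57 ribosome biogenesis genes, 53 were higher in DN3 cells and 2 lower (median 1.21), where 36.7% of all genes tested were higher. With library totals alone, 55 were higher (background 48.1%) and 0 lower (background 32.3%). Wdr12, of the PeBoW complex for large subunit rRNA processing, was at 15.6 ± 1.44 CPM (SD, n = 8) in lung ILC2 and 103 ± 1.40 CPM (SD, n = 3) in DN3 cells (log2 fold change 2.73 ± 0.08, adjusted p = 3.99e-18). Gnl3, nucleostemin, was at 43.6 ± 5.13 CPM (SD, n = 8) in lung ILC2 and 203 ± 1.19 CPM (SD, n = 3) in DN3 cells (log2 fold change 2.23 ± 0.08, adjusted p = 7.28e-17). Nop56, a core protein of box C/D snoRNPs, rose as well (1.84 ± 0.07, adjusted p = 1.92e-16). Summed over the list, biogenesis genes stood at 9895, 9898 and 9900.4 CPM in DN3 libraries and at 3995 to 4573 CPM in lung libraries.

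Mitochondrial ribosomal protein genes, which serve the separate ribosomes of mitochondria, were also mostly higher. Of 78, 66 were higher and 3 lower in DN3 cells (median 0.70), and with library totals alone 74 were higher and 1 lower. Mrps18b was at 6.23 ± 0.611 CPM (SD, n = 8) in lung ILC2 and 24.0 ± 2.01 CPM (SD, n = 3) in DN3 cells (log2 fold change 1.93 ± 0.13, adjusted p = 8.99e-12). Mrpl50 rose (1.77 ± 0.13, adjusted p = 6.13e-11), whereas Mrpl33 fell (-1.39 ± 0.09, adjusted p = 7.05e-12). Of 30 initiation factor genes, 20 were higher and 6 lower (median 0.56), and with library totals alone 24 and 4. For both lists the background of all genes tested was 36.7% higher and 42.1% lower on the TMM scale. With library totals alone it was 48.1% and 32.3%. Eif4a1, the helicase of the cap-binding complex, rose (1.16 ± 0.07, adjusted p = 1.94e-12), as did the cap-binding protein gene Eif4e (1.35 ± 0.09, adjusted p = 3.23e-12) and the scaffold subunit gene Eif3b (1.07 ± 0.07, adjusted p = 2.34e-12).

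Genes closer to the ribosomal proteins were called in both directions. Of 16 elongation factor genes and other genes with TOP messages, 7 were higher and 4 lower in DN3 cells (median 0.10), and with library totals alone 12 and 4. The background was 36.7% higher and 42.1% lower on the TMM scale, and 48.1% and 32.3% with library totals alone. Tpt1, a TOP message by textbook knowledge, was at 3305 ± 279 CPM (SD, n = 8) in lung ILC2 and 1193 ± 7.02 CPM (SD, n = 3) in DN3 cells (log2 fold change -1.47 ± 0.10, adjusted p = 4.38e-12), below the lowest ribosomal protein gene tested on this scale. Hnrnpa1 (1.14 ± 0.08, adjusted p = 1.47e-11) and the histone chaperone gene Nap1l1 (1.02 ± 0.08, adjusted p = 3.6e-11) rose. Of 6 ribosome parts that the symbol rule leaves out, 2 were higher and 2 lower (median 0.19), and with library totals alone 4 and 1, beside the same backgrounds. Fau, which encodes small subunit protein S30, fell (-1.11 ± 0.10, adjusted p = 1.45e-09), under either scaling. The small subunit scaffold gene Rack1 was lower on the TMM scale (-0.34 ± 0.09, adjusted p = 0.00243) and at 0.04 with library totals alone. Rpl7l1, a look-alike of Rpl7, rose (1.29 ± 0.08, adjusted p = 2.77e-12), and Rpl22l1 and Rpl36al did not pass the test on the TMM scale (adjusted p = 0.820 and 0.107). With library totals alone both were called higher by edgeR (0.34, adjusted p = 0.0228, and 1.10, adjusted p = 0.0183).

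Of 19 genes that control ribosome production, 7 were higher and 6 lower in DN3 cells (median 0.09), and with library totals alone 12 and 6. The background of all genes tested was 36.7% higher and 42.1% lower on the TMM scale, and 48.1% and 32.3% with library totals alone. Larp1, which binds TOP messages under mTOR, rose (1.04 ± 0.07, adjusted p = 1.65e-11). Rheb, the activator of mTOR (-1.22 ± 0.09, adjusted p = 2.78e-11), and Pdcd4, an inhibitor of the helicase eIF4A (-1.40 ± 0.07, adjusted p = 8.09e-14), fell. Between ZsGreen-positive and ZsGreen-negative ILC2 the calls in these lists stand beside 2.35% of all genes tested higher and 2.18% lower. Of the 19 control genes 1 was lower, Mycn (-0.52 ± 0.11, adjusted p = 0.0113), and of the 16 elongation and TOP genes 2 were lower, the snoRNA host genes Gas5 (-0.31 ± 0.08, adjusted p = 0.0409) and Snhg1 (-0.38 ± 0.11, adjusted p = 0.0476). With single libraries left out, 0 to 1 of each list were lower. Of the initiation, biogenesis and mitochondrial ribosomal protein genes 0 passed the edgeR test there. At an unadjusted p under 0.05 there were 2, 5 and 1, by DESeq2 1, 0 and 1 were lower, and by limma voom 0, 0 and 1.

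**Figure D4:**
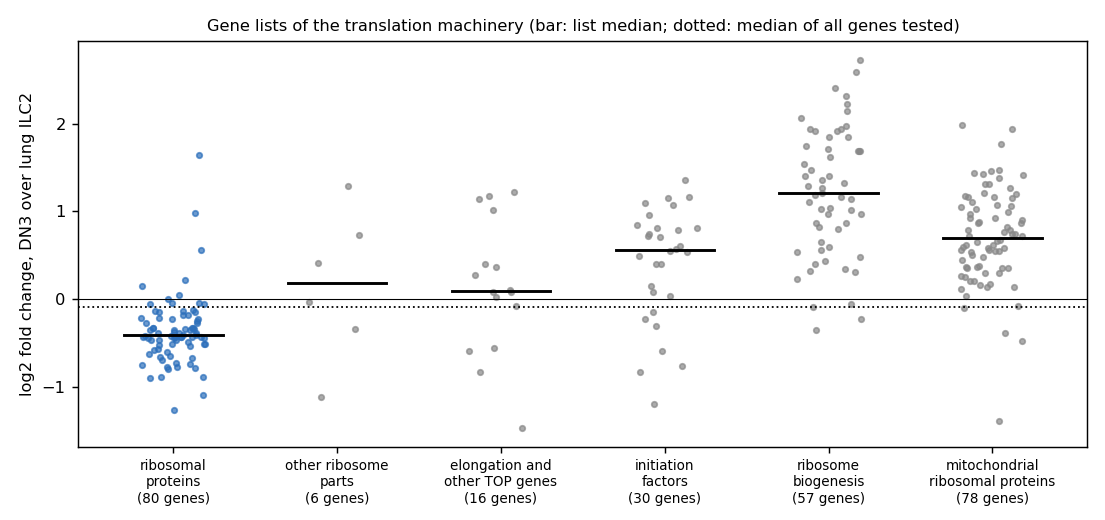
Log2 fold change in DN3 cells over all lung ILC2 (edgeR, TMM scaling) of each tested gene in 6 lists of the translation machinery. Points are genes, spread sideways for sight only, bars are list medians and the dotted line is the median of all genes tested. Ribosome biogenesis genes have a median of 1.21 and cytosolic ribosomal protein genes of -0.41.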

How the data were processed

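Bulk RNA-seq was made from total RNA of sorted cells, with the PicoPure kit for extraction and a Watchmaker Genomics mRNA library kit, per the labels' protocols. The authors deposited a table of whole-number counts per gene for 11 libraries. The submitters' processing notes name GRCm39 and DESeq2, while for aligner, counter, annotation and strand setting the entry is: not given in the sources used here. All columns matched a sample by its label. Totals of 4495260 to 17627469 counts set the precision of each value.

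Genes with enough counts by edgeR's filterByExpr (minimum count 10) were tested with edgeR 4.0.16 (R 4.3.3), using TMM scaling, the robust quasi-likelihood F test and Benjamini-Hochberg adjustment over all genes tested (threshold 0.05). The lung comparison used 8 libraries with batch as a term, and comparisons with DN3 cells used all 11. For departures from the family, offsets came from the members' summed counts times TMM factors computed on the members. Alternatives were RLE and upper-quartile scaling, no filter, DESeq2 1.42.0, limma 3.58.1 (voom), each library left out, a replicate block, other offsets, the lung fit without batch and the earlier lung batch alone. Library totals alone, a structural marker term and the alternatives for the other lists were chosen after seeing the data. The fits were tested on simulated counts.

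Members and gene lists were chosen with earlier results of these data known. Named members were up to 6 per direction of smallest p in each main comparison and relative to the family (the latter from 5 CPM upward in the higher of the groups), the 3 of highest mean CPM, every untested member and a set chosen for known roles. From each other list up to 3 genes of smallest p were named. Rplp2, Rpl24, Rpl6l and Rpl32l, and Trp53 of the p53 list, were named after their values were seen. Promoter windows came from RefSeq, build GRCm38.p6, of which 61 members matched, and lengths and overlaps from the GENCODE M21 annotation, matched by gene identifier.

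Same-numbered libraries of different groups did not deviate together, so numbers were taken as names only. Animals shared between groups are not excluded by this. Replicate libraries differed beyond sampling noise (chi-square over its degrees of freedom, 1.77 to 15.3 in 16 pairs). Intervals cover counting error only. A member that the naming rule selects is not reported here.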

Additional observations from a re-analysis of the deposited data

Results flagged for a closer look

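The lowest and highest values were set against their neighbours where a group has 5 libraries, in ZsGreen-negative ILC2 alone, for 28 members and the family's share of the counts. Rpl13a stood at 43.0 CPM in ZsGreen-negative library 4, far above the other libraries of the group (25.0 to 28.8 CPM). Rpl3 stood at 1042 CPM in ZsGreen-negative library 5, far below the others (1527 to 1668 CPM). Chance marks about 1 in 20 groups in this way, and 2 of these 29 were marked. Groups of 3 libraries cannot be examined so.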

How the results depend on the processing

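With library totals alone, a setting chosen after seeing the data, members called higher and lower in DN3 cells numbered 16 and 16 against all lung ILC2 (median -0.0363), 12 and 16 against ZsGreen-negative ILC2 (median -0.0502), and 16 and 14 against ZsGreen-positive ILC2 (median -0.00639), where 45.4 to 48.1% of all genes were higher and 31.3 to 32.3% lower. Under that setting the log2 fold change against all lung ILC2 turned positive for Rplp0 (0.23), Rpl4 (0.0345), Rps6 (0.0490), Rps19 (0.0496), Rpl11 (0.25) and Rpl22 (0.0481). The fold changes moved because no factor was applied. Without a filter on low counts, the members' median minus that of all genes was -0.13, over more genes. With the structural marker score as a term, 0 members were higher in ZsGreen-positive ILC2, also relative to the family, and the cause was not tested. With single libraries left out, members higher in DN3 than in ZsGreen-positive ILC2 numbered 3 to 5 (Rpl3l, untested with all libraries, among the 5), and those above the family 10 to 18. Of 104 values of named members, 24 changed their call or direction under some alternative, 9 of them without a single library. RLE and upper-quartile scaling, DESeq2, limma voom and the other offsets kept each family count within 1.5 times its value. Replicate numbers were not used as pairs: deviations of same-numbered ZsGreen-negative and ZsGreen-positive libraries correlated at 0.12, -0.19 and -0.14. Those of ZsGreen-negative library 5 and ZsGreen-positive library 3, of the same batch, correlated at 0.26. These values cannot show whether libraries of the groups share animals. With the replicate number as a block, 1 member was higher and 0 lower between the lung groups, and 4 were higher and 57 lower in DN3 cells. Depth limits the 3 untested members, Rpl24, Rpl32l and Rps4l, which hold the fewest counts.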
